A study of Rattus norvegicus with 43 samples.

Results

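Rat primary hepatocytes (RPH) after 24 h of culture were set against RPH at 0 h, the pellet of cells as they came from the liver. Isolation is thus the baseline, and any response to isolation already present at 0 h is part of that baseline. The comparison rested on 6 of the 15 samples of the series, or 18 of its 43 arrays. Each of 3 male Sprague Dawley rats gave 1 sample at each time, and 3 technical arrays of a sample were averaged before anything was tested. The remaining samples were liver taken before perfusion and RPH at 4 h and 48 h. The RPH at 4 h and 48 h were fitted together with those at 0 h and 24 h, so that all 12 share the estimate of the spread, and they place 24 h in the time course. The liver samples did not enter the fit. Rat age was not given in the sources used here.

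Cells at 0 h had been freed by perfusion and never plated. The cells at 24 h had been plated on collagen in William's E medium with serum, dexamethasone, insulin, transferrin, glutamate and gentamicin for the first 4 h, and then kept in the same medium without serum. Plating, medium, insulin, dexamethasone, early serum and time in culture therefore separate the groups together, and their effects cannot be told apart. Each rat gave a single cell preparation. Level differences between rats were taken out in the fit, so p-values measure how far the changes between the fitted times varied among 3 preparations.

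Hepatocytes carry out most of the liver's drug oxidation, bile acid and urea synthesis, and secretion of plasma proteins. Much of that expression depends on contact with neighboring cells, on a soft matrix and on hormones of the blood, and cells that are freed and plated spread on the dish, assemble actin fibers and lose part of it, a process known as dedifferentiation. Isolation itself sets off a brief stress response, led by immediate early genes, transcription factors such as Fos that are switched on within minutes without new protein synthesis.

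Signals are MAS5 values, the linear brightness of an array probe set scaled by the authors so that each array has the same trimmed mean. They rank a gene between samples but not 1 gene against another. A gene was called when limma's moderated test, with the rat as a block and Benjamini-Hochberg adjustment over all 10643 genes tested, gave an adjusted p under 0.05. Values at each time are given for rats 1, 2 and 3 in that order, and log2 changes (24 h minus 0 h) are given with the standard error of the fit.

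Between 0 h and 24 h, 5528 of 10643 genes were called, which is 51.9% of those tested. Of these, 3192 rose (30.0%) and 2336 fell (21.9%), and the median gene moved by 0.09 on the log2 scale. At least a 2-fold change was seen in 1195 genes that rose and 1180 that fell, and at least a 16-fold change in 50 and 56. The mean absolute log2 change was 0.73, 0.80 and 0.80 in the 3 rats (mean 0.776 ± 0.0405, SD, n = 3). The signals of the 3 rats did not overlap between the times in 5360 genes (50.4%). Without the block by rat, 4267 genes were called, 2490 up and 1777 down, and with only the 0 h and 24 h samples in the fit 4729.

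**Figure D1:**
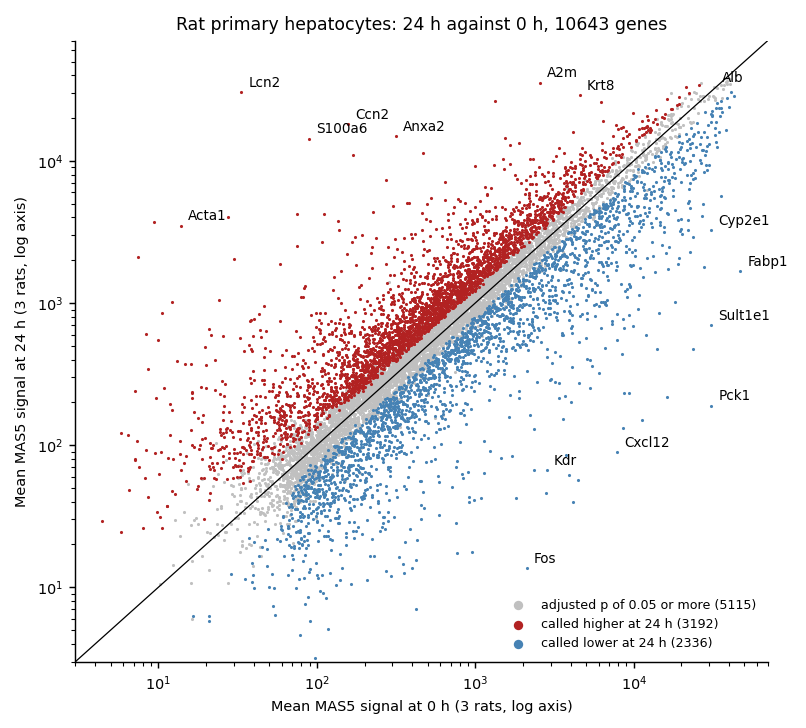
Mean MAS5 signal of each of 10643 genes at 24 h (vertical log axis) against 0 h (horizontal log axis), each the geometric mean of 3 rats; red genes were called higher at 24 h (3192), blue genes lower (2336) and grey genes were not called (5115), and the line marks equal signals. Lcn2, Acta1, S100a6 and Ccn2 lie far above the line, Pck1, Cxcl12 and Fos far below it, and Alb on it.

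Control ratios used to judge RNA quality moved with time. The ratio of 3' to 5' signal of the beta-actin control, which rises when RNA is broken, was 4.40, 4.28 and 3.16 at 0 h (3.95 ± 0.683, SD, n = 3) and 2.33, 2.50 and 2.24 at 24 h (2.36 ± 0.132), so the rats did not overlap. The same ratio of the GAPDH control moved less, from 1.83, 1.48 and 1.37 to 1.20, 1.24 and 1.26, also without overlap, and was not used in a fit. With the beta-actin ratio added to the fit as a covariate, a choice made after the data had been seen, 1251 genes were called, 642 up and 609 down, 1210 of them also called without it and none in the other direction. Of 268 called genes named in the text, 102 lost the call and 2 more, Elovl3 and Hnf4a, changed sign. Where their change is given below it carries the mark † after the value or the name, or ‡ where the call was also lost in at least 1 other refit, such as without the block, without 1 of the rats or samples, or with another normalization. Without the mark only Nr3c1 and S100a9 of the named genes lost a call in another refit, other than under a stricter threshold. The ratio and the time cannot be told apart here, and the median standard error grew from 0.165 to 0.360. Because this setting takes calls from most gene groups, the number of members called in that fit is given beside each group below, as "with the covariate". Members called only in that fit are counted too, such as Chac1 of the ATF4 target list.

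The largest rise was that of Lcn2, the iron-siderophore binding protein lipocalin-2. Its signals were 40.2, 11.5 and 80.0 at 0 h and 26704, 29896 and 35276 at 24 h (log2 change 9.83 ± 0.49, adjusted p = 1e-06). The lowest rat at 24 h lay far above the highest at 0 h. Signals as low as those at 0 h are imprecise, and with an offset of 32 added to every signal the log2 change was 8.56.

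Acta1, skeletal muscle alpha-actin, went from 43.3, 9.71 and 6.26 to 2054, 4563 and 4567 (log2 change 7.99 ± 0.59, adjusted p = 8.67e-06; 6.12 with the offset). S100a6, a small calcium-binding protein of spreading cells, rose from 138, 79.8 and 64.6 to 12886, 15356 and 14696 (log2 change 7.32 ± 0.27, adjusted p = 2.68e-07). Ccn2, connective tissue growth factor, rose from 417, 85.7 and 110.2 to 16115, 17104 and 21557 (log2 change 6.84 ± 0.51, adjusted p = 9.2e-06). In Acta1, S100a6 and Ccn2 every rat at 24 h stood above every rat at 0 h, and rat 1 was the highest of the rats at 0 h.

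Others of the 15 largest rises came from very low signals. Sult6b2, a sulfotransferase, had 14.1, 5.53 and 10.8 at 0 h and 3709.5, 4307 and 3265 at 24 h (log2 change 8.63 ± 0.32, or 6.40 with the offset). Gucy2c, the guanylate cyclase that binds guanylin and is best known from gut epithelium, went from 22.5, 21.8 and 41.9 to 4662, 2485 and 5609 (log2 change 7.20 ± 0.28, or 5.96 with the offset). B3galnt1, a glycosyltransferase, rose by 8.16 (5.66 with the offset), the small GTPase Rnd1 by 5.82 (5.30) and the fatty acid binding protein Fabp4 by 6.38 (4.40). The decoy interleukin-1 receptor Il1r2 rose by 6.17 (3.92 with the offset), the desmosomal plakin Ppl by 6.08† (4.87) and the innate immune protein Pglyrp1 by 5.78 (3.70). All 3 rats rose in each of these genes.

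The largest fall was that of Pck1, the cytosolic PEPCK that commits carbon to glucose synthesis. Its signals were 31102, 35666 and 26561 at 0 h and 178, 230.0 and 167 at 24 h (log2 change -7.35 ± 0.30, adjusted p = 3.59e-07), close to each other within each time. Fos went from 844, 3537 and 3134 to 30.8, 6.02 and 13.5 (log2 change -7.28 ± 0.64, adjusted p = 2.17e-05; -5.45 with the offset), and here rat 1 started lowest and ended highest. Cxcl12, a chemokine that sinusoidal and stellate cells also make, went from 8874, 6939 and 7844 to 114, 80.5 and 77.5 (log2 change -6.46 ± 0.15, adjusted p = 2.24e-08), with the 3 rats within a narrow range at both times.

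Several of the other largest falls were in metabolic genes. Sult1c3, a sulfotransferase, fell from 14662, 15152 and 19321 to 243, 189 and 225 (log2 change -6.22 ± 0.13). Sult1e1, estrogen sulfotransferase, fell from 30001, 29704 and 32154 to 386, 1008 and 861 (log2 change -5.46 ± 0.29). Rgn, regucalcin, fell by 5.66 on the log2 scale, and the log2 changes of the sulfate transporter Slc13a4 and of Gstp3, a glutathione transferase, were -6.27 and -6.24. Stac3 also lost signal (log2 change -6.70 ± 0.84†), but its 0 h signals of 3481, 13557 and 1515 spread widely and its call was lost with the covariate. In each gene of this paragraph the 3 rats at 24 h lay below the 3 at 0 h.

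**Figure D2:**
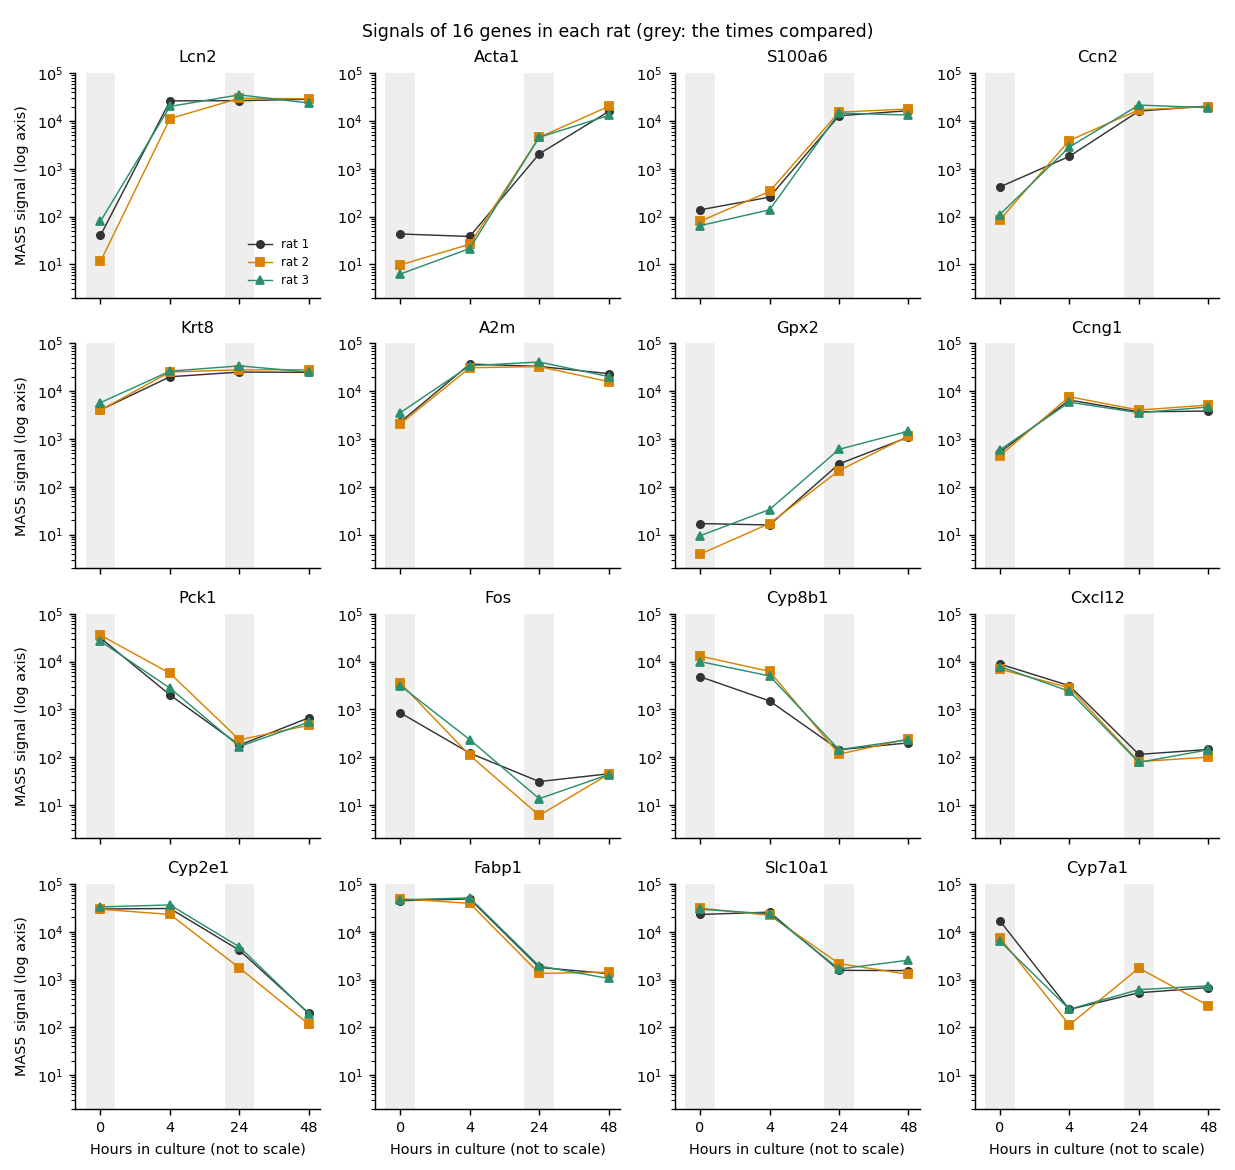
MAS5 signals (log axis) of 16 genes in each of 3 rats, joined by lines, at 0 h, 4 h, 24 h and 48 h, with the times evenly spaced rather than to scale and the 2 compared times shaded. Lcn2, Krt8 and A2m had made most of their rise by 4 h, S100a6 and Acta1 moved after 4 h, Fabp1 and Slc10a1 fell after 4 h, and Cyp2e1 went on falling to 48 h.

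Genes were grouped by 46 lists of function and 9 lists of cell type markers, and 1097 different members were called, 533 up and 564 down. Among the function lists, those with the highest medians were annexins and S100 proteins, actin and integrin genes and glycolysis, and those with the lowest were bile acid genes, Cyp4 hydroxylases, P450s and amino acid catabolism. These counts are descriptions against the 30.0% of all genes that rose and the 21.9% that fell, and the median change of all genes was 0.09. Counts with the covariate stand against far fewer calls over all genes, 642 higher and 609 lower of 10643 in that fit. Where a list below has 0 calls in one direction by limma, the count at an unadjusted p under 0.05 was also 0, except for 2 plasma carrier proteins that were higher and 1 glycolysis gene that was lower.

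**Figure D3:**
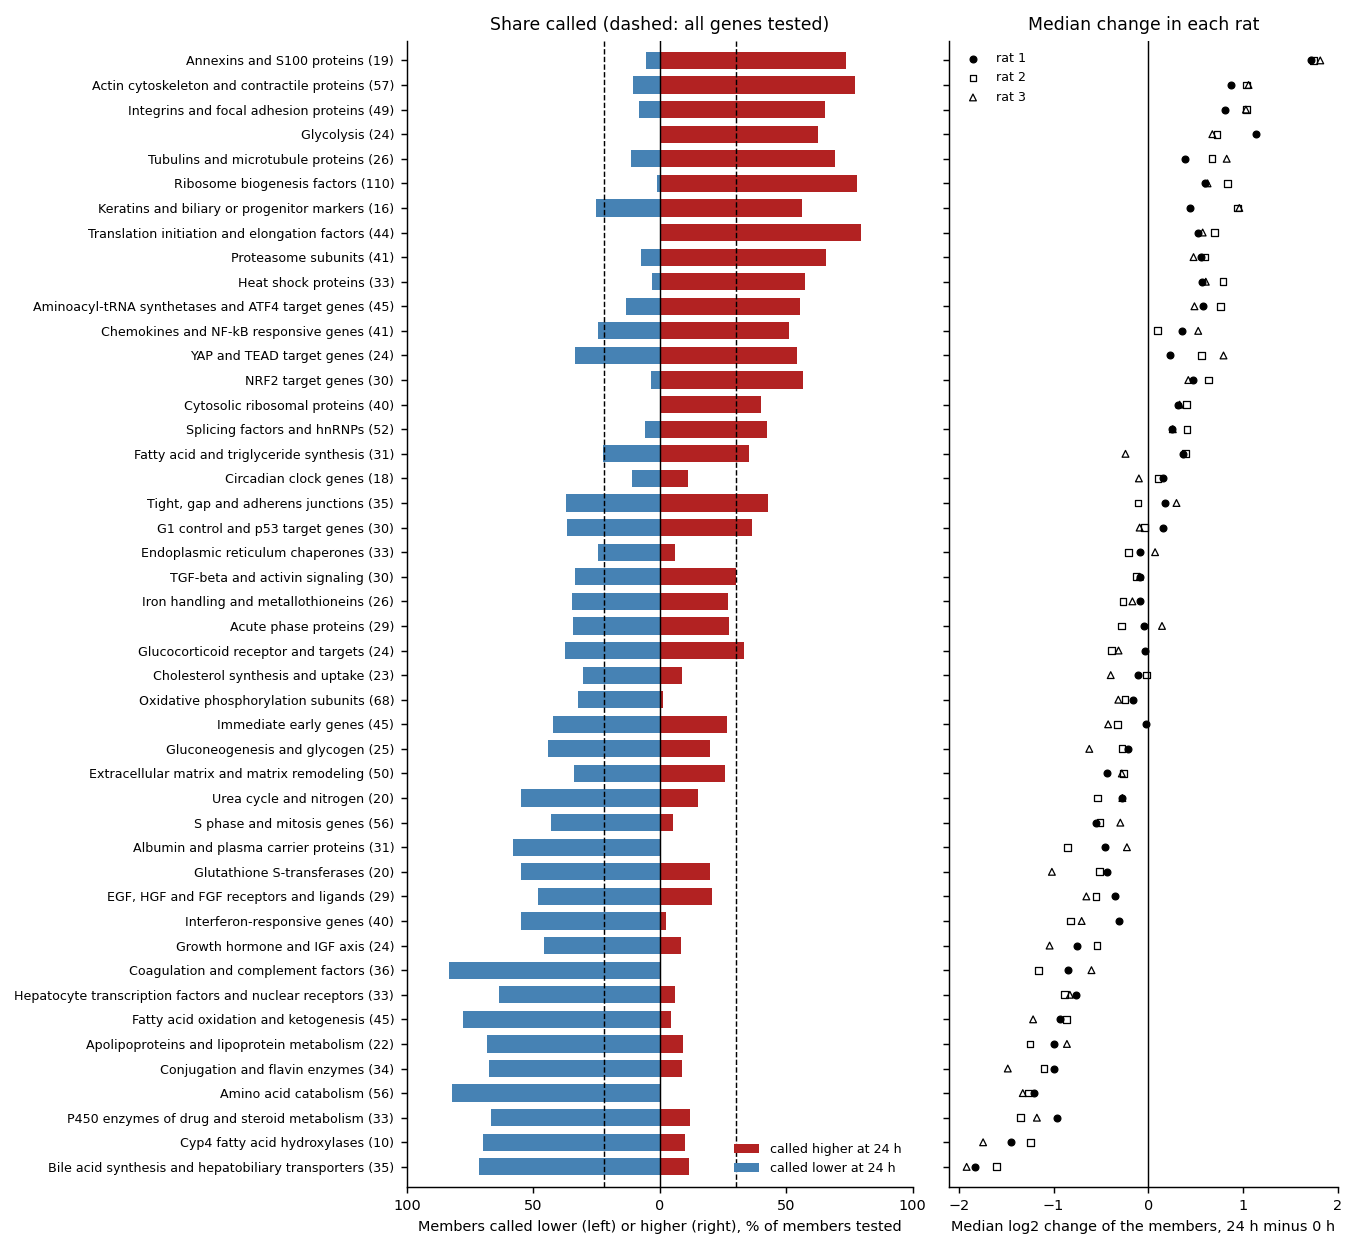
Left, the percentage of the tested members of 46 function lists called higher (red, right) or lower (blue, left) at 24 h, with dashed lines at 30.0% and 21.9%, the percentages over all genes, and the number of members tested in brackets; right, the median log2 change of the members in each rat. Every list from annexins down to splicing factors has medians above 0 in all 3 rats, and every list from glucocorticoid targets down to bile acid synthesis below 0 in all 3 rats.

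Most enzymes of drug oxidation fell in culture. Of 33 tested members of the list of cytochrome P450s and their electron partners, 22 fell, 4 rose and 7 were not called (median log2 change -1.28; 12 and 2 with the covariate). Cyp2e1, which oxidizes ethanol and acetaminophen, had 29998, 29692 and 33190 at 0 h and 4104, 1756 and 4831 at 24 h (log2 change -3.24 ± 0.22, adjusted p = 5.85e-06). Cyp2c11, the main male-specific P450 of rat liver, had 27601, 33337 and 29240 and 8676, 11297 and 8330.2 (log2 change -1.68 ± 0.17, adjusted p = 5.25e-05). Every rat was lower at 24 h, and rat 2 had the lowest Cyp2e1 and the highest Cyp2c11 at that time.

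Cyp3a2, a male-specific steroid hydroxylase, had 25550, 26913 and 27093 and then 11920, 6665 and 11563 (log2 change -1.45 ± 0.27†, adjusted p = 0.00166). The testosterone hydroxylases Cyp2a1 and Cyp2a2 changed by -3.30 ± 0.15 and -3.33 ± 0.12 on the log2 scale, the retinoid hydroxylase Cyp2c7 by -2.75 ± 0.26 and Cyp2b3 by -2.45 ± 0.21. These families hold near-identical members, whose probe sets may share transcripts.

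A few members went the other way. Por, the reductase that passes electrons to all microsomal P450s, rose from 1646, 1165 and 2382 to 8772, 8936 and 11018 (log2 change 2.52 ± 0.20, adjusted p = 1.12e-05). Cyp2j10 rose by 1.00‡, Cyp3a23-3a1 by 0.64‡ and Cyp2c22 by 0.40‡, a call lost in 16 of 26 refits, while Cyp2f4 (-0.01) and Cyp2t1 (0.02) were not called. Cyp1a1, the classic aryl hydrocarbon receptor target, had 5.72, 9.21 and 236 at 0 h and 364, 8.42 and 363 at 24 h, which overlap and differ in pattern between rats (adjusted p = 0.211).

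The Cyp4 enzymes, which hydroxylate fatty acids at the far end of the chain, followed the same course, with 7 of 10 lower and 1 higher (median -1.44; 5 and 0 with the covariate). Cyp4a1, a target of the fatty acid receptor PPARalpha, fell from 7614, 4089 and 15221 to 836, 365 and 1903 (log2 change -3.22 ± 0.38), rat 3 being highest at both times. Cyp4f4 changed by -2.72 ± 0.18 and Cyp4f1 by -1.74 ± 0.18, and Cyp4f5 was the member that rose (1.16‡).

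**Figure D4:**
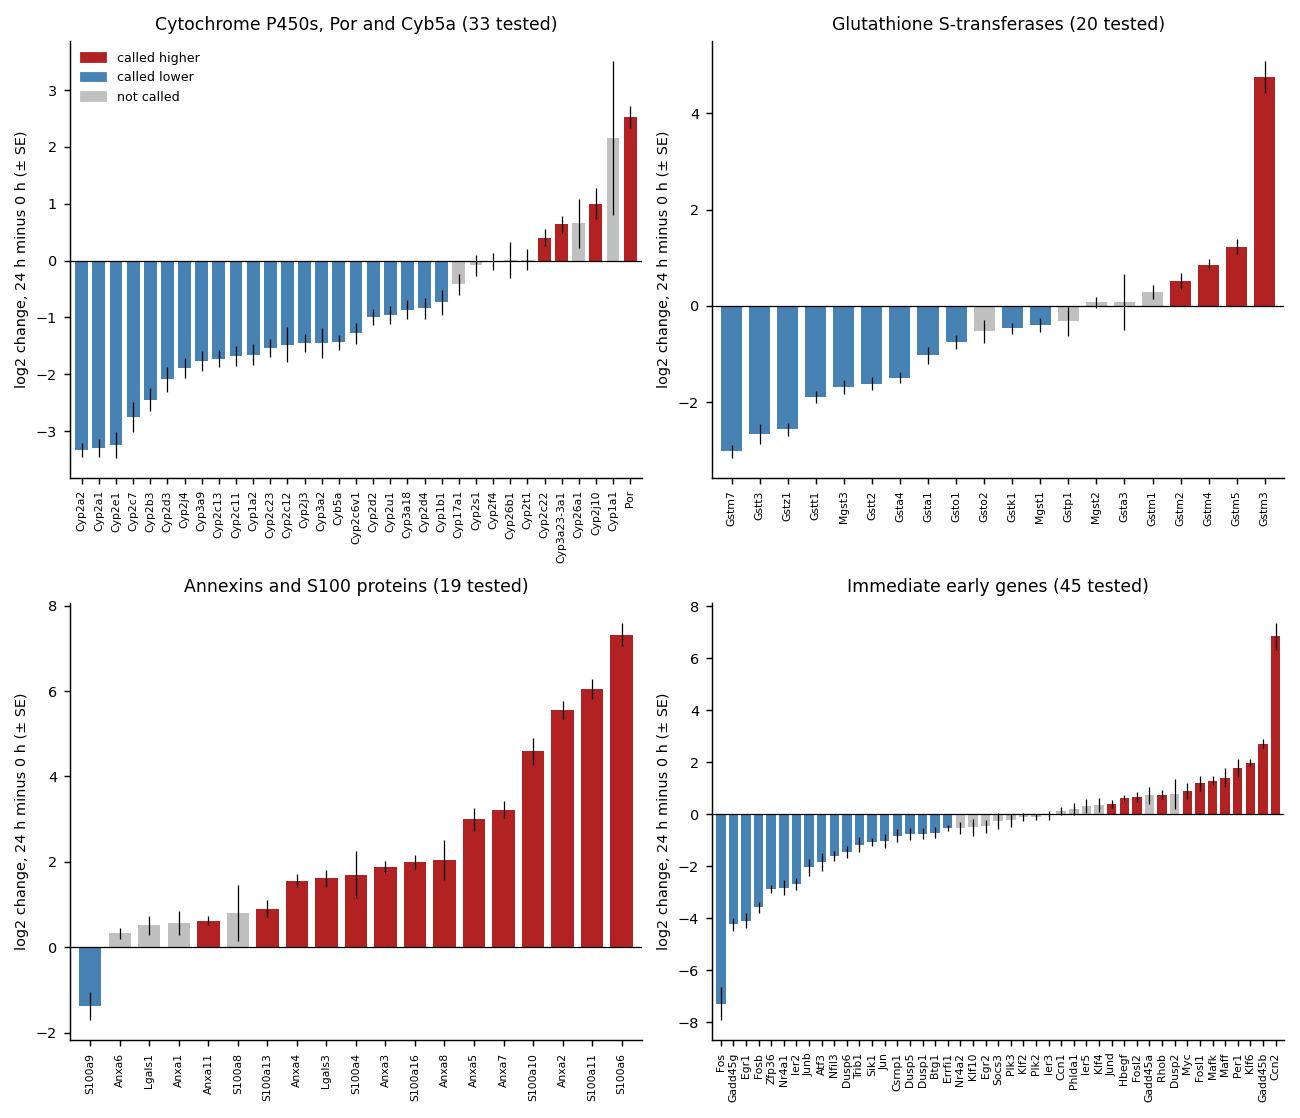
Log2 change (24 h minus 0 h, bars from 0) with its standard error (lines) of every tested member of 4 lists, red where called higher, blue where called lower and grey where not called. Most P450s lie below 0 with Por above it, glutathione S-transferases run from Gstm7 to Gstm3, annexins and S100 proteins lie mostly above 0, and immediate early genes run from Fos to Ccn2.

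Most conjugating enzymes fell. In the list of conjugation and flavin enzymes, 23 of 34 fell and 3 rose (median -1.11; 14 and 0 with the covariate). Beside the sulfotransferases named above, the flavin monooxygenase Fmo1 changed by -4.27 ± 0.19 on the log2 scale and the methyltransferase Inmt fell from 1409.5, 3669 and 2468 to 72.7, 65.9 and 61.2 (log2 change -5.14 ± 0.39). Sult1a1, the phenol sulfotransferase, had 23714, 26698 and 28595 and 25944, 25574 and 27242, and Sult1b1 had 24385, 23122 and 24556 and 23663, 24850 and 22169; neither was called (log2 changes -0.00 and -0.03). The glucuronosyltransferase Ugt2b1 rose by 0.66†, while Ugt2b10 changed by -2.19.

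Glutathione S-transferases join glutathione to electrophiles. Of 20, 11 fell and 4 rose (median -0.49; 7 and 2 with the covariate), and the members that rose, Gstm2 to Gstm5, were all of the mu class. Gstm3 rose from 253, 455 and 175 to 8382, 5397 and 8752 (log2 change 4.75 ± 0.33, adjusted p = 6.36e-06), and Gstm2, Gstm4 and Gstm5 by 0.52‡, 0.85 and 1.23†. Another mu class gene, Gstm7, fell from 2631, 3329.8 and 3215 to 331, 364 and 439.8 (log2 change -3.02 ± 0.13, adjusted p = 5.34e-07). Whether probe sets of near-identical members share transcripts was not checked for this family or for the Ugt2b genes above. Theta class Gstt3 changed by -2.66 ± 0.21 and Gstz1, an enzyme of tyrosine breakdown, by -2.56 ± 0.14.

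NRF2 is the transcription factor that answers oxidants and electrophiles. Of 30 of its known target genes tested, 17 rose and 1 fell (median 0.50; 5 and 0 with the covariate). Gpx2, a glutathione peroxidase of epithelia, went from 17.0, 3.90 and 9.46 to 301, 219 and 610.2 (log2 change 5.32 ± 0.40, adjusted p = 9.72e-06; 3.11 with the offset). Cbr1, a carbonyl reductase, went from 338, 311 and 419.5 to 2816, 2621 and 3149 (log2 change 3.01 ± 0.23, adjusted p = 1.13e-05). All rats rose in both genes.

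Further members were Akr1b8 (3.79 ± 0.45), the sulfiredoxin Srxn1 (2.27 ± 0.29) and the cystine carrier Slc7a11 (2.83 ± 0.56†), given as log2 changes. The efflux pump Abcc3 had 23.9, 10.4 and 260.5 at 0 h and 269, 117 and 755 at 24 h, higher at 24 h within each rat although the groups overlapped, since rat 3 was high at both times (log2 change 2.84 ± 0.49‡, adjusted p = 0.00123, not called without the block). Not all targets moved: Gclc, the subunit that limits glutathione synthesis, had 3240.2, 3742 and 2893 and 2781, 2591 and 2616 (adjusted p = 0.112), and Ephx1, epoxide hydrolase, 17356, 19321 and 17803 and 17199, 16910 and 16009 (adjusted p = 0.449).

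NRF2 binds the antioxidant response element, searched for here as TGACNNNGC on both strands in promoter windows of RefSeq (GRCr8, 250 bases before to 50 after the start of each gene). It was found in 9 of 27 promoters of the NRF2 list (33.3%) and 6 of 17 of the transferase list (35.3%), against 12.2% of 27457 promoters in all and 14.8% of the promoters of tested genes. Of the 9 genes of the NRF2 list, 3 rose and 6 were not called, while of 18 members without the match 11 rose and 1 fell. Of the 6 transferases, 1 rose, 3 fell and 2 were not called, while of 11 without the match 3 rose and 6 fell. The stretches around the match are shown for Gpx2 and Gstm5, which rose, and for Gstm7, which fell, as genes of different course with the same letters; capitals mark the match.
Gpx2: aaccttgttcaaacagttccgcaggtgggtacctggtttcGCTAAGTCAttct
Gstm5: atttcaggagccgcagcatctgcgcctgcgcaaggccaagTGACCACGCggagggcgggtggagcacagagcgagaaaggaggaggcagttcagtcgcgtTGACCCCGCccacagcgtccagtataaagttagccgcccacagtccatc
Gstm7: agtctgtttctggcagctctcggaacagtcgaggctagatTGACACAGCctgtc
The stretches are chr6:101230034-101230086 (minus strand), chr2:198219616-198219764 (plus) and chr2:198260320-198260373 (minus), each read 5' to 3' toward the gene. A match is a stretch of letters and was not tested for binding.

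Bile acid synthesis and the transporters that carry bile acids and drugs through the hepatocyte had the lowest median of all function lists (-1.81). Of 35 members, 25 fell and 4 rose (18 and 0 with the covariate). Cyp7a1, the rate-limiting enzyme of bile acid synthesis, had 16976, 7522 and 6366 at 0 h and 531, 1733 and 616 at 24 h (log2 change -3.50 ± 0.57, adjusted p = 0.00086†). Rats 1 and 3 lost more than rat 2, which kept the most Cyp7a1 at 24 h, and the call was lost with the covariate. Cyp8b1, which sets the share of cholic acid, went from 4809.7, 12980 and 9984 to 143, 115 and 143 (log2 change -6.01 ± 0.38, adjusted p = 3.68e-06), rat 1 starting lowest.

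Among transporters, Slc10a1, the sodium-dependent bile acid uptake carrier NTCP, fell from 23029, 31254 and 29643 to 1562, 2162 and 1667 (log2 change -3.96 ± 0.23, adjusted p = 2.45e-06). Slco1b2, an organic anion uptake carrier, fell from 13460, 11119 and 11404 to 573, 609 and 609 (log2 change -4.32 ± 0.12, adjusted p = 3.46e-08), the tightest of these falls. Both carriers had a gap of several fold between the lowest rat at 0 h and the highest at 24 h. The canalicular bile salt pump Abcb11 changed by -0.62‡ and the sterol pump Abcg5 by -3.81 ± 0.38.

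The members that rose were all efflux pumps, Abcc3, Abcg2 (1.30†), Abcb1a (1.24†) and Abcc2 (0.53‡). None of these 4 stayed called with the covariate. Cyp27a1, which starts the acidic route of bile acid synthesis, had 7622, 11036 and 14067 and 11409, 14245 and 14819 and was not called (adjusted p = 0.0924).

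Transcription factors that maintain hepatocyte genes were mostly lower, 21 of 33 falling and 2 rising (median -0.84; 4 and 0 with the covariate). Nr0b2, the bile acid-induced repressor SHP, went from 5055, 5903 and 1748 to 146, 65.4 and 63.8 (log2 change -5.46 ± 0.42, adjusted p = 1.05e-05). Cebpa went from 5212, 4036 and 7674 to 1176, 1303 and 1293 (log2 change -2.12 ± 0.23, adjusted p = 8.32e-05†). The bile acid receptor Nr1h4 changed by -1.88 ± 0.23† and the fasting factor Creb3l3 by -2.34 ± 0.22. All 3 rats were lower at 24 h in each gene.

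Hnf4a, the master regulator of the hepatocyte program, had 11100, 13141 and 7906 and 7048, 7114 and 7593 (log2 change -0.53 ± 0.19‡, adjusted p = 0.0403). Its groups did not overlap, but its changes were -0.66, -0.89 and -0.06 in the 3 rats, the call was lost in several refits and the sign turned with the covariate (0.30). Foxa2 (-0.18) was not called, nor was Onecut1, whose signals of 739, 131 and 4347 at 0 h were far apart. The factors that rose were Esrra (0.92‡) and Ahr (0.62‡). The Ahr call was lost in 14 of 26 refits, among them those without the block and without rat 1 or rat 2.

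Albumin and several other major plasma proteins were not called. In the list of albumin and carrier proteins, 18 of 31 fell, none rose and 13 were not called (median -0.49; 7 lower with the covariate). Alb itself had 26965, 40544 and 30853 at 0 h and 25942, 36160 and 38419 at 24 h (log2 change 0.03 ± 0.19, adjusted p = 0.901), overlapping between the times and lower in 2 rats. The vitamin D carrier Gc, haptoglobin Hp, hemopexin Hpx and the elastase inhibitor Serpina1 were likewise not called (log2 changes -0.16, -0.08, -0.05 and -0.12).

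These are among the brightest probe sets, where saturation of the scale was not tested. The highest of all mean signals was 46860.

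Other carriers of the same list fell far. Serpina7, thyroxine-binding globulin, had 2298, 1121 and 2327 and then 52.2, 23.2 and 63.9 (log2 change -5.41 ± 0.14, adjusted p = 3e-08). Serpina6, the corticosteroid-binding globulin, had 15349, 15050 and 19517 and 1826, 1133 and 2546 (log2 change -3.25 ± 0.21, adjusted p = 3.57e-06). Igfals, which holds IGF in a circulating complex, had 4064, 2852 and 5035 and 37.8, 119.6 and 52.0 (log2 change -5.97 ± 0.50, adjusted p = 1.62e-05). In all of these the rats did not overlap. Alpha-fetoprotein Afp, a fetal protein, changed by -1.19 ± 0.20.

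Most clotting and complement proteins fell. Of 36, 30 fell and 0 rose (median -0.83; 11 lower with the covariate). Serpind1, heparin cofactor II, went from 16928, 19619 and 18530 to 995, 813 and 1316 (log2 change -4.17 ± 0.18, adjusted p = 5.45e-07). Prekallikrein Klkb1 changed by -2.93 ± 0.24, the mannose-binding lectin Mbl1 by -2.14 ± 0.15, C5 by -1.98 ± 0.16 and the fibrinogen chain Fgb by -0.82 ± 0.17†. The central complement protein C3 had 34537, 43317 and 37066 and 33056, 33376 and 40953 and was not called (adjusted p = 0.6).

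The HNF1 element, searched for as GTTAATNAT on both strands, is known from promoters of plasma protein genes. It was found in 4 of 26 promoters of the carrier list (15.4%) and 4 of 28 of the clotting and complement list (14.3%), against 0.776% of all promoters and 0.482% of those of tested genes. In the carrier list 2 of the 4 fell and 2 were not called, and in the other list 3 fell and 1 was not called. Without the match, 12 of 22 carriers and 20 of 24 members of the other list fell. Alb, which was not called, and C5 and Plg, which fell, are shown with the match in capitals.
Alb: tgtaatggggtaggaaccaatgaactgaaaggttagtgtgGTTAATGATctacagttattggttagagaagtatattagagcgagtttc
C5: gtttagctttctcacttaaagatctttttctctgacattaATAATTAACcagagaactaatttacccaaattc
Plg: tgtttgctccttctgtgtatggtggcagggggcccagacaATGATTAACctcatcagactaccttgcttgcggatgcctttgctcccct
They lie on GRCr8 at chr14:17907013-17907101 (minus strand), chr3:38759469-38759541 (minus) and chr1:50915428-50915516 (minus) and are credited to RefSeq. Plg, plasminogen, had 29444, 28266 and 29780 and 14038, 7367 and 19590 (log2 change -1.20 ± 0.26†).

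Apolipoproteins and the enzymes of lipoproteins showed 15 of 22 lower and 2 higher (median -1.03; 8 and 0 with the covariate). Apon fell from 9245, 13199 and 8487 to 2008, 2699 and 1805 (log2 change -2.24 ± 0.20), the receptor Lrp1 changed by -2.30 ± 0.18, hepatic lipase Lipc by -1.54 ± 0.14 and Apob, the core of very low density lipoprotein, by -0.73 ± 0.14†. Lipoprotein lipase Lpl, which adult hepatocytes hardly express, rose from 91.5, 42.6 and 56.4 to 261, 116 and 693 (log2 change 2.19 ± 0.43†), most in rat 3.

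Acute phase proteins, which the liver secretes in inflammation, went both ways, 8 of 29 rising and 10 falling (median -0.08; 4 and 1 with the covariate). The share that rose (27.6%) was near the 30.0% of all genes. A2m, the rat's major acute phase protein, rose from 2255, 2077 and 3561 to 33092, 32934 and 41022 (log2 change 3.80 ± 0.17, adjusted p = 6.41e-07). Cebpd, a transcription factor of this response, changed by 2.97 ± 0.32, metallothionein Mt2A by 2.82 ± 0.41†, the interleukin-1 receptor antagonist Il1rn by 2.64 ± 0.54‡ and the protease inhibitor Timp1 by 1.99 ± 0.23†. Lbp (1.74†) and Stat3 (1.61) also rose. Among those that fell were Crp (-0.95) and the 3 fibrinogen chains. The median of the list turned above 0 with quantile normalization, without rat 2, without its 0 h sample alone, and without the 24 h sample of rat 1.

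Fatty acid oxidation and ketone synthesis were lower in 35 of 45 genes and higher in 2 (median -0.97; 19 and 0 with the covariate). Fabp1, the liver fatty acid binding protein, fell from 44917, 49129 and 46627 to 1799.8, 1345 and 1923 (log2 change -4.81 ± 0.18, adjusted p = 2.68e-07), a 28.1-fold loss seen about equally in each rat. Pdk4, which holds back glucose oxidation, fell from 3328, 3288 and 6014 to 221, 207 and 181 (log2 change -4.32 ± 0.28, adjusted p = 4.3e-06). The peroxisomal enzyme Ehhadh changed by -3.93 ± 0.17, the ketone body enzyme Bdh1 by -3.21 ± 0.28, the medium-chain dehydrogenase Acadm by -2.75 ± 0.13 and the acyl-CoA synthetase Acsl1 by -2.70 ± 0.14. The fatty acid translocase Cd36 rose (1.74‡), as did Acot2 (0.70‡).

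Fat synthesis was mixed, with 11 of 31 higher and 7 lower (median 0.12; 1 and 4 with the covariate). These shares (35.5% and 22.6%) were near those of all genes (30.0% and 21.9%). Those that fell included the elongases Elovl5 (-2.12 ± 0.11) and Elovl2 (-2.01 ± 0.15) and the desaturases Fads1 (-1.64 ± 0.18) and Fads2 (-2.05 ± 0.22), which make polyunsaturated fatty acids, and the lipogenic factor Srebf1 (-1.83 ± 0.18†). Scd had 17521, 21572 and 29642 and 28727, 28374 and 32102 and Acly 12905, 12450 and 18122 and 16680, 15170 and 14866, and neither was called. Acaca (1.09‡), Lpin1 (1.33‡) and Pnpla3 (1.25‡) rose.

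Most cholesterol genes were not called, with 7 of 23 lower, 2 higher and 14 not called (median -0.19; none with the covariate). The epoxidase Sqle rose from 2113, 1029.5 and 2529 to 3995, 3238 and 3988 (log2 change 1.08 ± 0.19†), while Fdps had 17434, 16294 and 25996 and 19182, 20466 and 20159 (adjusted p = 0.889). Nsdhl changed by -0.66 ± 0.14† and the sterol sensor partner Scap by -0.84 ± 0.17†.

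Genes of glucose synthesis fell more often than they rose, and those of glycolysis rose more often than they fell. In the gluconeogenesis and glycogen list 11 of 25 fell and 5 rose (median -0.30; 4 and 1 with the covariate). Besides Pck1, Fbp1, fructose bisphosphatase, fell from 15056, 22228 and 20628 to 2983, 5598 and 3457 (log2 change -2.30 ± 0.18, adjusted p = 1.16e-05), pyruvate carboxylase Pc changed by -1.59 ± 0.18 and Got1 by -1.33 ± 0.13. Gyg1, the glycogen primer, rose (1.33 ± 0.22†), and the glucose carrier Slc2a2 had 14411, 19757 and 17590 and 17524, 18565 and 19447 (adjusted p = 0.517).

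In glycolysis 15 of 24 genes rose and 0 fell (median 0.73; 6 higher with the covariate). Aldoc, an aldolase isoform of brain, rose from 18.7, 12.5 and 30.1 to 173, 109 and 231 (log2 change 3.09 ± 0.21, adjusted p = 4.67e-06). It started from low signals, and its log2 change ran from 1.86 to 3.25 across the refits. Aldoa, the isoform of muscle, rose from 1931, 1774 and 2110.0 to 5939, 6452 and 8941 (log2 change 1.86 ± 0.16, adjusted p = 1.73e-05). The glucose carrier Slc2a1, scarce in adult liver, rose from 195, 199 and 209 to 884, 616 and 1108 (log2 change 2.07 ± 0.20, adjusted p = 3.56e-05), and every rat rose in each of these genes. Ldha had 18396, 21829 and 18132 and 18401, 14611 and 19032 and Pgk1 16970, 17169 and 17497 and 21812, 19140 and 22848, and neither was called.

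Of the nitrogen genes more fell than rose, with 11 of 20 genes of the urea cycle and ammonia transport lower and 3 higher (median -0.43; 5 and 0 with the covariate). Otc, the second urea cycle enzyme, fell from 10857, 14779 and 14016 to 2426, 2334 and 3428 (log2 change -2.29 ± 0.16) and Cps1, the first, from 28847, 31489 and 28380 to 20169, 15731 and 17664 (log2 change -0.73 ± 0.14†), while Arg1, the last, had 23469, 28833 and 24460 and 26233, 28435 and 27134 (adjusted p = 0.538). Oat, an ornithine transaminase of the cells around the central vein, changed by -3.84 ± 0.38 and the glutaminase Gls2 by -2.25 ± 0.12.

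Of 56 genes that break down amino acids, 46 fell and 0 rose (median -1.27; 24 lower with the covariate). Kmo, of the tryptophan route, fell from 2807, 4938 and 3594 to 230.5, 259.8 and 184 (log2 change -4.05 ± 0.22, adjusted p = 1.34e-06). Uroc1, of histidine breakdown, fell from 7181, 13022 and 7009.5 to 494, 919 and 646 (log2 change -3.71 ± 0.17, adjusted p = 6.21e-07). Bhmt, which remethylates homocysteine, changed by -3.03 ± 0.24 and the tyrosine enzyme Hgd by -2.84 ± 0.30†. Tdo2, the first enzyme of tryptophan breakdown, had 19253, 30313 and 20542 and 15903, 22059 and 17575 and was not called (adjusted p = 0.11).

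Most factors that build ribosomes rose, by modest amounts. Of 110 ribosome biogenesis factors 86 rose and 1 fell (median 0.71; 14 and 0 with the covariate). Sdad1, a factor of large subunit maturation, rose from 157, 178 and 152 to 691, 756 and 664 (log2 change 2.12 ± 0.14, adjusted p = 5.27e-06). Tsr1, of the small subunit, rose from 1209, 948 and 789.8 to 2784, 3362 and 3252 (log2 change 1.69 ± 0.18, adjusted p = 7.03e-05). Pno1 changed by 1.46 ± 0.11 and Rrp12 by 1.56 ± 0.26†. Myc, a driver of this program, had 1362, 731 and 1522 and 1942, 2136 and 2315 (log2 change 0.89 ± 0.32‡, adjusted p = 0.0395), a call lost in several refits.

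Ribosomal proteins themselves rose in 16 of 40 cases and fell in none (median 0.35; none called with the covariate), led by Rpl3 (0.75 ± 0.17‡), Rpl14 (0.75 ± 0.14†) and Rpl12 (0.72 ± 0.16†). Of 44 translation factors 35 rose and 0 fell (median 0.64; 3 with the covariate). Eif4ebp1, the brake on cap binding that TOR releases, rose from 1258, 951 and 1391 to 5590.0, 6343 and 5700.5 (log2 change 2.31 ± 0.24, adjusted p = 5.46e-05†), and Eif1ax changed by 1.31 ± 0.14. Elongation factor Eef1a1 was not called (-0.08).

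Aminoacyl-tRNA synthetases load tRNA, and with genes of amino acid synthesis and uptake many are known targets of ATF4, the factor of the amino acid response. Of 45 members 25 rose and 6 fell (median 0.56; 1 and 5 with the covariate). Slc7a1, the carrier of arginine and lysine, rose from 434, 64.8 and 224 to 1465, 1105 and 1346 (log2 change 2.81 ± 0.43, adjusted p = 0.0006†). Psat1, of serine synthesis, rose from 2981, 363 and 1146 to 6115, 5519.9 and 4198 (log2 change 2.28 ± 0.48, adjusted p = 0.00347†). Both started lowest in rat 2, and neither was called with the covariate. Gdf15, a stress hormone on the same list, fell from 585, 2489.6 and 3465 to 82.4, 73.6 and 96.1 (log2 change -4.36 ± 0.45, adjusted p = 5.7e-05), and Atf4 itself had 5472, 6054 and 11793 and 10822, 10264 and 10284 (adjusted p = 0.0971).

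The composite C/EBP-ATF element was searched for as TGATGNAA on both strands. It was found in 12 of 41 promoters of this list (29.3%), against 3.84% of all promoters and 2.04% of those of tested genes. Of the 12 genes 8 rose, none fell and 4 were not called, while of 29 members without the match 15 rose and 4 fell. Slc7a1, Nupr1† and Trib3‡, which rose, and Aars1, which did not pass (log2 change 0.01), are shown with the match in capitals.
Slc7a1: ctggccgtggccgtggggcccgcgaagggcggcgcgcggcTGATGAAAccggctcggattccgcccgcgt
Nupr1: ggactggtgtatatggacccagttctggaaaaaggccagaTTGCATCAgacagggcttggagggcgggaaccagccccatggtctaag
Trib3: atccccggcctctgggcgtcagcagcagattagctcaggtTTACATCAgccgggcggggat
Aars1: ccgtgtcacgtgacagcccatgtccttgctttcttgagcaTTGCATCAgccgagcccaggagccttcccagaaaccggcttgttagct
They lie on GRCr8 at chr12:11664418-11664487 (plus strand), chr1:190645909-190645996 (minus), chr3:161275534-161275594 (minus) and chr19:55908330-55908417 (plus), as given by RefSeq. Nupr1, a stress-induced chromatin protein, went from 4577, 3957 and 5420.2 to 9999.8, 12190 and 8969, and the pseudokinase Trib3 from 989, 502 and 1639 to 2345, 1743 and 2113.

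Proteasome subunits rose in 27 of 41 cases and fell in 3 (median 0.59; 4 and 0 with the covariate), Psmd8 from 3225, 4226 and 3475 to 10824, 11825 and 11330 (log2 change 1.65 ± 0.12, adjusted p = 7.43e-06). Heat shock proteins and the cytosolic chaperonin rose in 19 of 33 and fell in 1 (median 0.57; 5 and 0 with the covariate). Cryab, a small heat shock protein of muscle, rose from 123, 70.0 and 69.4 to 852, 2358 and 1118 (log2 change 3.96 ± 0.39, adjusted p = 4.4e-05), Hspb1 changed by 2.24 ± 0.27† and Cct5 by 1.00 ± 0.14†.

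Chaperones of the endoplasmic reticulum had 2 of 33 higher and 8 lower (median -0.02; 1 and 0 with the covariate), so 30.3% were called against 51.9% of all genes. Hspa5, the central chaperone BiP, had 23604, 20356 and 22294 and 22221, 17897 and 20344 (adjusted p = 0.351), while Edem1, of protein disposal, rose (1.03 ± 0.14). Subunits of oxidative phosphorylation had 22 of 68 lower and 1 higher (median -0.25; 1 and 0 with the covariate), Ndufa6 (-0.91 ± 0.10) and Ndufc1 (-0.86 ± 0.11†) falling most. Splicing factors had 22 of 52 higher and 3 lower (median 0.31; 2 and 0 with the covariate), among them Snrpa (1.67 ± 0.23†) and Snrpf (1.23 ± 0.15†).

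Genes of the actin cytoskeleton, which the spreading cell assembles, mostly rose. Of 57 actin and contractile genes 44 rose and 6 fell (median 1.07; 21 and 2 with the covariate). Tagln, transgelin of smooth muscle, went from 11.7, 8.86 and 11.3 to 423, 1757 and 837 (log2 change 6.34 ± 0.38, adjusted p = 2.45e-06; 4.28 with the offset). Flna, the actin crosslinker filamin A, went from 338, 163 and 235 to 1899, 3156 and 3977 (log2 change 3.62 ± 0.31, adjusted p = 1.9e-05). In both genes rat 1 ended lowest, and all rats at 24 h stood above those at 0 h. Vil1 changed by 3.86 ± 0.56†, nonmuscle myosin Myh10 by 3.68 ± 0.53† and Tagln2 by 3.37 ± 0.20.

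Actg1 rose by 0.54‡, and Tmsb4x, which binds free actin, had 11426, 14926 and 10975 and 10621, 17478 and 11307 (adjusted p = 0.778). Those that fell included Marcksl1 (-2.03), Csrp1 (-1.18†) and gelsolin Gsn (-0.50‡). Acta2 (2.34) and Tagln are also on the stellate cell list, whose other members are described below, and the part of such cells in these rises was not tested.

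The CArG box, the site of serum response factor, was looked for by its usual consensus on both strands and found in 4 of 50 promoters of the actin list (8%), against 1.64% of all promoters and 1.37% of those of tested genes. Of the 4 genes Acta1, Cnn2 and Actg1 rose and Lima1 fell (-0.43‡), while of 46 members without the box 36 rose and 5 fell. Acta1 and Cnn2 are shown as the members with the match that rose most, with the box in capitals.
Acta1: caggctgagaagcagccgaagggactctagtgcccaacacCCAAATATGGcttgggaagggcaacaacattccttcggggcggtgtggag
Cnn2: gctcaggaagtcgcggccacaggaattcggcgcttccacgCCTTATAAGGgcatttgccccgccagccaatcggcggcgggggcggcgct
They lie on GRCr8 at chr19:68784239-68784328 (minus strand) and chr7:10370334-10370423 (minus), from RefSeq. Cnn2, calponin 2, went from 352, 255 and 244 to 1732, 3188 and 2788 (log2 change 3.15 ± 0.30).

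Microtubule genes rose in 18 of 26 cases and fell in 3 (median 0.72; 4 and 0 with the covariate). The tubulin Tubb6 went from 169, 95.0 and 162 to 3680.4, 2430.3 and 3940.2 (log2 change 4.58 ± 0.16, adjusted p = 2.33e-07), and Map1b changed by 3.56 ± 0.32 and Tubb5 by 1.90 ± 0.20†, while Stmn1, which takes microtubules apart, changed by -1.51 ± 0.23†. Integrins and focal adhesion genes rose in 32 of 49 and fell in 4 (median 1.01; 14 and 3 with the covariate). The tetraspanin Cd9 rose by 4.22, 5.17 and 5.51 in the 3 rats (log2 change 4.97 ± 0.34, adjusted p = 5.31e-06) and testin, Tes, from 313, 449 and 392 to 4365, 5154 and 5677 (log2 change 3.73 ± 0.14, adjusted p = 2.68e-07). Caveolin Cav1 changed by 3.68 ± 0.53†, Ajuba by 2.88 ± 0.29†, and the integrins Itga6 and Itgb1 by 1.88 and 1.12.

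Annexins and S100 proteins, which bind membranes and calcium, had the highest median of all function lists (1.70), with 14 of 19 higher and 1 lower (9 and 1 with the covariate). Anxa2 went from 403, 259 and 304 to 13372, 13599 and 18097 (log2 change 5.55 ± 0.20, adjusted p = 2.68e-07). Its partner S100a10 went from 530.0, 292 and 669 to 9321, 12510 and 12269 (log2 change 4.59 ± 0.32, adjusted p = 5.89e-06). S100a11 went from 212, 129 and 173 to 7893, 13079 and 13178 (log2 change 6.04 ± 0.24, adjusted p = 3.09e-07), and no rat overlapped between the times in any of these. Anxa5 (2.99 ± 0.27) and Anxa7 (3.22 ± 0.20) also rose, Anxa1 and Anxa6 were not called, and the neutrophil protein S100a9 was the member that fell (-1.38 ± 0.33, not called without rat 3).

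Keratins and markers of biliary or progenitor cells rose in 9 of 16 cases and fell in 4 (median 0.71; 5 and 1 with the covariate). The pair that hepatocytes use, Krt8 and Krt18, went from 4074, 4027 and 5786 to 25252, 28041 and 34025 (log2 change 2.66 ± 0.14, adjusted p = 1.36e-06) and from 5717, 6076 and 7065 to 22000, 27091 and 29887 (log2 change 2.06 ± 0.13, adjusted p = 3.72e-06). Vim, the filament of mesenchymal cells, rose from 408, 266 and 478 to 4178, 5828 and 5388 (log2 change 3.77 ± 0.23, adjusted p = 2.59e-06). Krt19, the keratin of bile ducts, fell from 84.2, 57.5 and 148 to 9.37, 12.2 and 18.7 (log2 change -2.80 ± 0.33, adjusted p = 0.00012†), unlike most of the list. Prom1 (1.91 ± 0.40†) and Epcam (0.87 ± 0.21‡) rose.

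Cell junction genes went both ways, with 15 of 35 higher and 13 lower (median 0.08; 4 and 4 with the covariate). Desmosomal Dsp rose from 2187, 2739.9 and 1980.3 to 6342, 6280.1 and 8088 (log2 change 1.59 ± 0.16), as did Cxadr (1.69 ± 0.18). Claudin Cldn2 fell from 3539, 3056 and 3237 to 786, 699.7 and 1122 (log2 change -1.94 ± 0.20), and the gap junction connexins Gjb1 (-1.42) and Gjb2 (-1.03†), through which hepatocytes are coupled, fell with it. Beta-catenin Ctnnb1 had 10921, 12874 and 9187 and 10226, 10636 and 11337 (adjusted p = 0.901).

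YAP and TEAD carry signals of cell shape to the nucleus. Of 24 genes of this list 13 rose and 8 fell (median 0.51; 3 and 2 with the covariate), led by Ccn2, Ankrd1 (3.62 ± 0.61†) and the clotting initiator F3 (2.22 ± 0.26). Ccn1, the other well-known target, had 206, 447 and 255 and 269, 375 and 301 (adjusted p = 0.529), and the kinase Nuak2 changed by -1.93 ± 0.23.

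The TEAD element, GGAATG on either strand, was found in 6 of 15 promoters of this list (40%), against 13.9% of all promoters and 11.3% of those of tested genes. Of the 6 genes 3 rose, 1 fell and 2 were not called, while of 9 members without the match 4 rose and 4 fell. Ccn2, whose window held 3 matches, and Amotl2 are shown with the matches in capitals.
Ccn2: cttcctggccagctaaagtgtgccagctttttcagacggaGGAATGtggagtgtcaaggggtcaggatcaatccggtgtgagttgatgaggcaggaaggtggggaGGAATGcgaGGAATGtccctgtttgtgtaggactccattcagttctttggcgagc
Amotl2: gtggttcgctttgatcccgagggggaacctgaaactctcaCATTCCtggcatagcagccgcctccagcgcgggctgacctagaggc
They lie on GRCr8 at chr1:22624661-22624820 (minus strand) and chr8:112182510-112182595 (plus), from RefSeq. Amotl2 went from 1139, 2283 and 1391 to 4822, 4212 and 4687 (log2 change 1.57 ± 0.23†).

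Matrix genes went both ways, 13 of 50 rising and 17 falling (median -0.42; 3 and 7 with the covariate). The share that rose (26%) was near the 30.0% of all genes. Col14a1 fell from 1136, 635 and 997 to 81.1, 41.9 and 81.2 (log2 change -3.78 ± 0.15, adjusted p = 3.09e-07) and Col3a1 from 3387, 1690.5 and 4757 to 316, 173 and 455 (log2 change -3.37 ± 0.32, adjusted p = 3.31e-05). Lamc1, a laminin chain, rose from 445, 331 and 406 to 2149, 1951 and 2514 (log2 change 2.49 ± 0.20, adjusted p = 1.47e-05). Tenascin Tnc rose (2.41 ± 0.31), whereas Col1a1 had 98.9, 42.5 and 44.7 and 116, 50.3 and 61.9 (adjusted p = 0.282) and fibronectin Fn1 16676, 19540 and 19904 and 21796, 21074 and 28322 (adjusted p = 0.0742). Col3a1 is a stellate cell marker as well, and the summed signal of those markers fell too, as given below.

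Among immediate early genes more fell than rose over the day. Of 45 members 19 fell and 12 rose (median -0.26; 10 and 4 with the covariate). Egr1 went from 12338, 16481 and 15075 to 1214, 479 and 1084 (log2 change -4.08 ± 0.30, adjusted p = 7.78e-06). Gadd45g went from 3679.6, 8278 and 7239 to 321, 343 and 304 (log2 change -4.23 ± 0.25, adjusted p = 2.5e-06) and Zfp36, which destroys inflammatory transcripts, from 8514, 9549 and 10412 to 1430.1, 1018 and 1504 (log2 change -2.87 ± 0.15, adjusted p = 1.14e-06). Every rat was lower at 24 h in these 3 genes.

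Junb (-2.04), Nr4a1 (-2.81), Ier2 (-2.68) and Atf3 (-1.83) fell as well. Their mean signals in liver, at 0 h and at 24 h were 334, 1383 and 336 for Junb and 218, 561 and 79.8 for Nr4a1. Those of Ier2 were 1961, 6056 and 945.5, and those of Atf3 162, 2982 and 836. Each thus stood higher at 0 h than in liver, which was not in the fit. The part of isolation in these falls was not tested. Among those that rose besides Ccn2 were Gadd45b, from 377, 453 and 241 to 2077, 2343 and 2429 (log2 change 2.72 ± 0.19), Klf6 (1.98) and the Fos relative Fosl1 (1.20‡). The AP-1 element, TGANTCA on either strand, to which Fos and Jun bind, was found in none of 36 promoters of this list. In the matrix list it was found in 4 of 35 (11.4%), against 7.39% of all promoters and 5.02% of those of tested genes. Of these 4 matrix genes 1 rose, 2 fell and 1 was not called, while of 31 without the match 10 rose and 8 fell.

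Chemokines and genes of NF-kB rose in 21 of 41 cases and fell in 10 (median 0.55; 7 and 4 with the covariate). Cxcl16 rose from 225, 146 and 159.5 to 2699, 2540.2 and 3525 (log2 change 4.06 ± 0.22, adjusted p = 1.37e-06). Tnfaip3, the A20 brake on NF-kB, rose from 598, 441 and 533 to 2953, 2423 and 3707 (log2 change 2.52 ± 0.18, adjusted p = 6.88e-06). Nfkb2 (2.26), Sod2 (1.85) and Icam1 (1.62) rose with them. Among those that fell were Il1a (-4.51 ± 0.30), Ccl6 (-2.50 ± 0.14) and Il1b (-2.15†), which macrophages also make. Most of the Kupffer cell markers given below fell as well, and their part was not tested.

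Interferon-responsive genes fell in 22 of 40 cases and rose in 1 (median -0.61; 7 and 0 with the covariate). The helicase Ddx60 had 226, 57.0 and 128 and 21.6, 2.09 and 2.86 (log2 change -4.55 ± 0.48†, -1.93 with the offset), Rtp4 changed by -2.04 ± 0.23 and Mx1 by -1.66 ± 0.24. Ifitm1 fell from 2952, 2636 and 3381 to 883, 820.3 and 1107 (log2 change -1.68 ± 0.16), and B2m, the light chain of MHC class I, had 29467, 37266 and 31391 and 26258, 25536 and 30888 (adjusted p = 0.193).

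The medium held dexamethasone, a ligand of the glucocorticoid receptor. Of 24 genes, the receptor and its known targets, 8 rose and 9 fell (median -0.17; 4 and 6 with the covariate). Fkbp5, a sensitive target, rose from 325, 416 and 330.0 to 1707, 2277 and 2018 (log2 change 2.49 ± 0.15), and Per1 rose by 1.79†. Sgk1, named for both serum and glucocorticoids, fell from 4628, 4338 and 7416 to 474, 267 and 504 (log2 change -3.73 ± 0.21, adjusted p = 1.89e-06). Tsc22d3 changed by -1.06‡ and Tat, tyrosine aminotransferase, had 5798, 6048 and 3864 and 4746, 4201 and 5069 (adjusted p = 0.604). The receptor Nr3c1 changed by -1.46, a call lost when its probe sets were averaged.

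In the growth hormone and IGF list 11 of 24 fell and 2 rose (median -0.79; 6 and 1 with the covariate). Ghr, the growth hormone receptor, fell from 7949.6, 11482 and 14393 to 1749.7, 1607 and 1983 (log2 change -2.63 ± 0.17, adjusted p = 3.72e-06), Igfbp3 from 1160.0, 1129 and 1435 to 121, 65.5 and 96.1 (log2 change -3.76 ± 0.28) and Irs1 from 208, 447 and 216 to 44.6, 42.8 and 52.0 (log2 change -2.55 ± 0.29†). Igf1, the product of this axis, changed by -1.27. The insulin receptor Insr was not called (0.14).

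Receptors and ligands of EGF, HGF and FGF fell in 14 of 29 cases and rose in 6 (median -0.52; 2 and 2 with the covariate). Egfr fell from 10397, 8801 and 3465 to 2072, 1889.6 and 1589.9 (log2 change -1.89 ± 0.26†) and Egf changed by -2.25 ± 0.16, while Pdgfa rose (2.38 ± 0.19). The deepest falls of the list, Kdr (-5.40 ± 0.31) and Pdgfra (-4.11 ± 0.48†), are those of receptors that endothelial and stellate cells carry.

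TGF-beta and activin genes were divided, 9 of 30 rising and 10 falling (median -0.06; 1 and 3 with the covariate). The share that rose was that of all genes (30.0%). The activin inhibitor Fstl3 rose from 21.6, 9.67 and 38.7 to 215, 267 and 278 (log2 change 3.65 ± 0.36†). The activin subunit Inhbb rose by 3.47, a size that ran from 1.56 to 4.17 across the refits. Inhba (-1.88 ± 0.21†) and Inhbc (-2.19 ± 0.21) fell. In iron handling 7 of 26 rose and 9 fell (median -0.07; 1 and 0 with the covariate), and the share that rose (26.9%) was again near that of all genes. The transferrin receptor Tfrc rose from 2408, 2340.2 and 5327 to 9718, 9642 and 10485 (log2 change 1.68 ± 0.22†), the iron importer Slc11a2 by 2.19, and Hamp, hepcidin, was not called (0.80).

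Few clock genes were called, 2 of 18 rising and 2 falling (median 0.09; none with the covariate). The members that rose were Per1 and Per3 (1.61‡), and those that fell were Nfil3 (-1.60†) and Hlf (-0.69‡). The times lie 24 h apart, and the hour of day was not given in the sources used here.

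Genes of DNA synthesis and mitosis fell more often than they rose. Of 56 S phase and mitosis genes 24 fell and 3 rose (median -0.46; 2 and 1 with the covariate). Mki67, the marker of cycling cells, had 175, 142 and 61.1 and 17.0, 24.4 and 28.6 (log2 change -2.34 ± 0.45, adjusted p = 0.00205†), and Ube2c, of mitotic exit, 229, 217 and 117 and 35.8, 51.3 and 40.4 (log2 change -2.10 ± 0.27, adjusted p = 0.00021†). Both fell from low signals and lost the call with the covariate, and rat 3 was the lowest at 0 h in both. The replication genes Pcna and Mcm7 were not called, Pcna having 1626, 2760.0 and 2123 and 1947, 2627 and 1725 (adjusted p = 0.83) and Mcm7 599, 499.6 and 557 and 547, 604 and 621 (adjusted p = 0.51).

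G1 control and p53 targets went both ways, 11 of 30 rising and 11 falling (median 0.04; 3 and 3 with the covariate). Ccng1, a p53 target, rose from 532, 449 and 593 to 3715, 4039 and 3559 (log2 change 2.85 ± 0.16, adjusted p = 1.78e-06) and the death receptor Fas from 229.7, 80.4 and 358 to 1182, 896 and 1166 (log2 change 2.52 ± 0.36, adjusted p = 0.000381†). The inhibitor Cdkn1a rose by 1.62, Cdkn1c fell from 170.5, 153 and 194 to 43.9, 11.4 and 22.2 (log2 change -2.95 ± 0.31), and cyclin D1, Ccnd1, changed by -1.03‡.

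Most markers of sinusoidal endothelial, Kupffer and stellate cells fell over the same day. In these bulk samples fewer cells of a type and less RNA per cell cannot be told apart. Of 28 sinusoidal endothelial markers 26 fell and 0 rose (median -1.52; 11 lower with the covariate), and their summed signal went from 24639, 16138 and 22875 to 6385, 4023 and 6655. Stab2, which clears hyaluronan, went from 1693, 621 and 1383 to 131, 66.3 and 143 (log2 change -3.40 ± 0.15, adjusted p = 5.34e-07), and Kdr from 3711, 2168 and 2785 to 68.8, 47.5 and 91.2 (log2 change -5.40 ± 0.31, adjusted p = 2.21e-06). The rats did not overlap in either gene, and the endothelial marker Vwf‡ was low at both times (means 16.5 and 6.28).

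Of 21 Kupffer cell and macrophage markers 16 fell and 1 rose (median -0.82; 5 lower with the covariate), with summed signals of 34052, 34534 and 32166 and 18095, 14987 and 18604. Clec4f, particular to Kupffer cells, had 3791, 3264 and 2872 and 1031, 934 and 1033 (log2 change -1.72 ± 0.14, adjusted p = 1.2e-05). Cd68 had 687, 884 and 894 and 463, 365 and 588 (log2 change -0.82 ± 0.18, adjusted p = 0.00406‡), a call lost with the covariate and without rat 2, and Cd163 was not called (0.07). The member that rose was Hmox1‡, which is also on the NRF2 list. MHC class II genes followed, 6 of 8 lower and 1 higher, RT1-DMa† being the member that rose (3 and 0 with the covariate), and Cd74, the invariant chain, going from 1828, 1788 and 1608 to 443, 444 and 591 (log2 change -1.83 ± 0.17).

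Stellate cell and fibroblast markers fell in 12 of 22 cases and rose in 4 (median -1.24; 7 and 2 with the covariate), and their summed signal went from 23719, 14277 and 22792 to 5103, 4257 and 5121. Much of the drop in this sum is that of Cxcl12, described above, the member that fell furthest (-6.46). Lrat, which stores retinoid in these cells, fell from 658, 221 and 718 to 91.4, 18.6 and 60.2 (log2 change -3.33 ± 0.27, adjusted p = 1.28e-05). The members that rose were Tagln, Acta2, Des (0.80‡) and Mgp (1.06‡), and Col1a1 was not called. In each of these 3 lists every rat's sum at 24 h lay below every rat's sum at 0 h.

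Other lists were short. Hemoglobin Hbb went from 921, 69.7 and 355 to 29.7, 18.2 and 132, overlapping between the times (log2 change -2.77 ± 0.70, adjusted p = 0.00857‡). It is on a list of hemoglobin and erythroid genes, of whose 7 members 3 fell and 2 rose (none with the covariate). Of 10 lymphocyte markers 5 fell and 1 rose (none with the covariate), with summed signals of 1102, 789 and 953 and 1019, 564 and 856. Of 3 neutrophil markers Lcn2 rose and S100a9 fell, both also with the covariate, while S100a8 had 24.1, 16.2 and 12.4 and 48.3, 12.2 and 43.7 and was not called. Of 8 cholangiocyte markers Sctr†, Epcam and Prom1 rose and Krt19 and Aqp1 fell, 0 and 1 of these with the covariate.

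Hepatocyte markers themselves fell in 7 of 13 cases and rose in 0 (median -0.53; 2 lower with the covariate), with summed signals of 346490, 417720 and 363270 and 244230, 244270 and 299650. The asialoglycoprotein receptor subunits Asgr1 and Asgr2 changed by -0.73 ± 0.12† and -1.65 ± 0.15. Alb, Apoa1 (0.07) and Ttr (-0.15) were not called and had high signals at both times, whereas Fabp1 fell furthest of the list (-4.81). Alb, Apoa1 and Ttr are among the bright probe sets, where saturation was not tested.

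**Figure D5:**
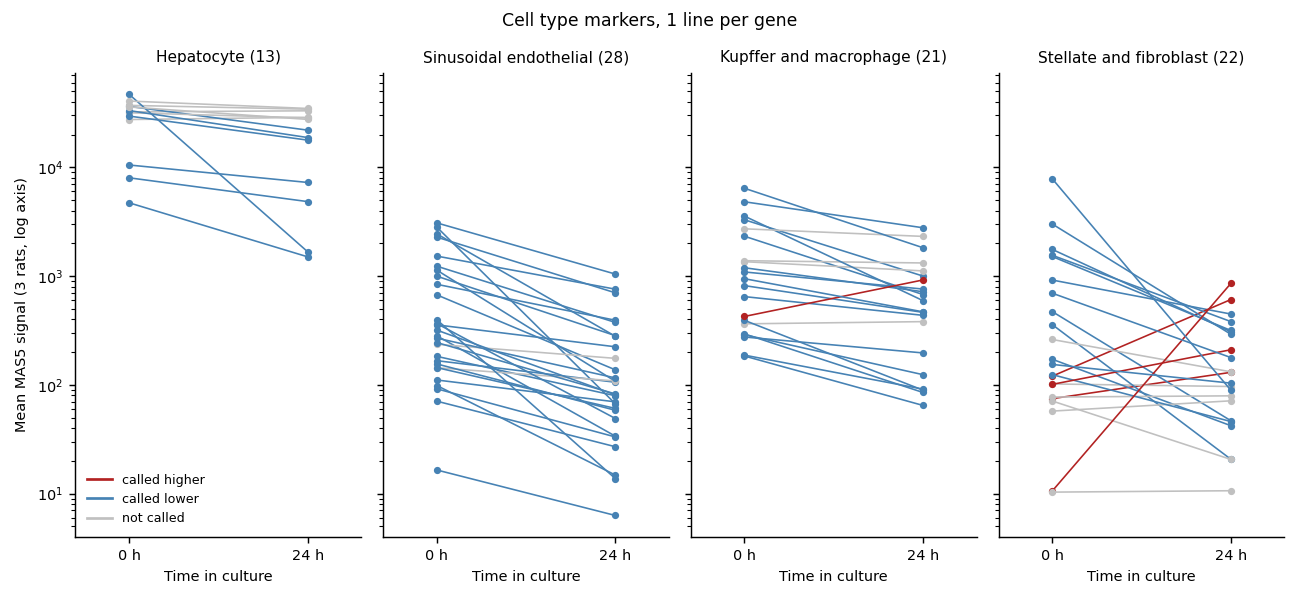
Mean MAS5 signal (log axis, geometric mean of 3 rats) of each marker gene at 0 h and 24 h, 1 line per gene, in 4 marker lists with the number of genes tested in brackets; red lines were called higher, blue lines lower and grey lines not called. Most sinusoidal endothelial, Kupffer and stellate lines descend, while hepatocyte lines stay near the top apart from Fabp1.

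Fewer genes were called after 24 h than up to it. Between 4 h and 24 h 5355 genes were called (50.3%), 3447 up (32.4%) and 1908 down (17.9%), and between 24 h and 48 h 921 (8.65%), 559 up (5.25%) and 362 down (3.40%). These comparisons share the 24 h samples with each other and with the comparison above. Ribosome biogenesis factors went down in 62 and up in 4 of 110 cases from 4 h to 24 h. Actin genes went up in 40 of 57 and annexins and S100 proteins in 16 of 19 over the same interval. Immediate early genes went down in 25 of 45.

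Single genes took different routes to their 24 h level. The mean signals of Hmox1, heme oxygenase, were 425, 10651, 920.2 and 422 at 0, 4, 24 and 48 h, a peak at 4 h that had mostly passed by 24 h. Those of Gclc were 3273, 9692, 2662 and 1958. Both were lower at 24 h than at 4 h (log2 changes -3.53 ± 0.29 and -1.86 ± 0.14, adjusted p = 2.34e-05 and 2.01e-05).

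Cyp7a1 had means of 9333, 186, 827 and 524, and was higher at 24 h than at 4 h (log2 change 2.16 ± 0.57, adjusted p = 0.0116). Acta1 had means of 13.8, 27.9, 3498 and 16123, rising after 4 h (log2 change 6.97 ± 0.59, adjusted p = 3.01e-05). Cyp2e1 had means of 30920, 29609, 3266 and 163, and fell further after 24 h (log2 change -4.32 ± 0.22, adjusted p = 5.52e-05). Alb stayed within 29636 to 34899 at all times.

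From 24 h to 48 h S phase and mitosis genes went up in 12 of 56 cases and down in 0. Fatty acid oxidation genes went up in 10 of 45 and matrix genes in 14 of 50, none of either going down. Kupffer cell markers went down in 17 of 21 and P450s in 12 of 33, with 3 P450s going up. The 24 h to 48 h count rests on each rat, and without rat 1 it was 110, without rat 2 369 and without rat 3 402.

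Some genes changed differently in the 3 rats. The range of the log2 change between rats was above 2 in 329 genes. Fgf21, a hormone of fasting and stress, had 927, 878 and 5909.8 at 0 h and 1194, 1458 and 698 at 24 h, so its change was 0.37, 0.73 and -3.08 and not called (adjusted p = 0.519). Gsta3 had 748, 249 and 1845 and 769.7, 842 and 638, a change of 0.04, 1.76 and -1.53. Hspa1a, the inducible Hsp70, had 318, 1481 and 2824 and 649, 514 and 602, a change of 1.03, -1.53 and -2.23. Neither of the latter was called, and in each of these genes the rats lay farther apart at 0 h than at 24 h.

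The glutathione-degrading Chac1 was of the same kind (380.2, 840.4 and 3039 at 0 h and 895, 1089.8 and 848 at 24 h), and rat 3 was high at 0 h in Fgf21, Gsta3, Hspa1a and Chac1. The phosphodiesterase Pde4b (371, 1211 and 287 and 701, 516 and 1089.9) and the repressor Bcl6 (1916, 6169 and 983 and 795, 562 and 772) were high at 0 h in rat 2. Bcl6 was called (log2 change -1.69 ± 0.57‡, adjusted p = 0.0327), but not with the covariate or in several other refits. Across all genes the median SD between rats was 0.265 at 0 h and 0.233 at 24 h on the log2 scale, against 0.180 and 0.158 between technical arrays of a sample.

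Some genes gave more than 1 answer. Of 2913 genes with several probe sets, 180 had another probe set called in the opposite direction. Map7, a microtubule protein, is among them, not called by the chosen probe set (-0.10) and higher by 0.40 when its probe sets were averaged. The elongase Elovl3, low at both times (4.54, 11.7 and 17.6 and 58.4, 32.2 and 20.2) and called higher (log2 change 1.78 ± 0.62‡), turned to -0.37 with the covariate, and the laminin chain Lama5 (2.49 ± 0.62‡) turned to -0.16 when no filter was set on low signals and another probe set was chosen.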

How the data were processed

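RNA of each sample was hybridized to Affymetrix RG230-2 arrays, which hold 31099 probe sets. The deposited files hold MAS5 intensities on a linear scale, which the authors had scaled to a common trimmed mean on each array. The submitters' processing notes name MAS5 and affy, without their versions. The authors had left out 1 array at 4 h and 1 at 48 h, so 43 arrays remained. Values were turned to log2 here, and technical arrays of a rat were averaged. Probe sets above the array median on at least 5 of the 43 arrays (10%) were kept (19041), and a gene was represented by its brightest probe set, which left 10643 genes of 14217. Of all probe sets, 20826 had 1 gene in the platform annotation, 436 had several, 9780 had none and 57 were controls. Symbols were looked up through gene IDs for 20758 of those with 1 gene, and the symbol differed in 0 of them.

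The 12 RPH samples were fitted together by lmFit and eBayes of limma 3.58.1 (R 4.3.3) with the rat as a block, and the steps were tested on simulated data. The pairing comes from the rat numbers of the labels, and deviations of samples from the same rat correlated (median r = 0.42 over 18 pairs, lowest 0.21). The value for different rats (median -0.21 over 36) follows from this and adds nothing, because deviations from a group mean cancel out. Arrays give no count of molecules, so their number limits the precision. Genes were named by rule, as the 15 largest rises and falls, up to 6 called and 2 uncalled members of each list, the 6 with the widest range between rats and a few fixed genes. A further 68 genes were chosen after their values were seen. The comparison, the members and the lists were chosen with earlier results of these data known. Alternatives covered the block, the samples fitted, normalization, an offset, the filter, probe set choice, technical arrays, the prior, the threshold and each rat left out, and the 3' to 5' ratio was added after seeing the data. Actb is not among the genes tested.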

Additional observations from a re-analysis of the deposited data

How the results depend on the processing

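The number of genes called between 0 h and 24 h stayed within 1.5 times of 5528 under every alternative except a required 2-fold change (2375) and the added beta-actin 3' to 5' ratio (1251). The called members of the lists, 1097, came to 597 and 347 under the same settings. With no replicate block, that is without pairing by rat, 4267 genes were called, and leaving out 1 rat gave 3930 to 4429. Quantile normalization gave 53.7% of calls higher and median centring 60.7%, against 57.7%. Between 4 h and 24 h the required 2-fold change gave 2086 and the ratio 3529, against 5355. Between 24 h and 48 h the 921 calls fell to 362 with no replicate block, 456 with all 15 samples and no block, 350 at an adjusted p under 0.01, 394 with a 2-fold change, and 110 to 908 when a rat or a single sample was left out. Of 268 called genes named in the text, 162 were called in the same direction in every one of the refits. The sign turned for Elovl3 (-0.37) and Hnf4a (0.30) with the ratio, for Map7 (0.40) with the mean of probe sets and for Lama5 (-0.16) with no filter. Some list medians changed sign too. Those of acute phase, endoplasmic reticulum chaperone, clock, G1 and p53, and cholangiocyte genes did so in several settings. In a single setting so did those of fat synthesis, TGF-beta, cholesterol, junction, glucocorticoid, lymphocyte and erythroid genes. The iron median did so without rat 2 or its 0 h sample. Signals under 32 at one time, in 333 genes, and a single preparation per rat limit what the arrays resolve.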
